A study of Mus musculus with 34 samples.

Results

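The genes described here encode 10 structural and signalling proteins of striated muscle, most of them at the Z-disc, on the filaments tied to it or in the elastic I-band beside it: Des, Speg, Ankrd2, Flnc, Csrp3, Ldb3, Myoz1, Myot, Cryab and Xirp1. Every probe set annotated to 1 of these symbols was taken, which gave 19 of the 22690 probe sets on the array and 10 of the 12394 genes named by a probe set with a single symbol. The genes were chosen by their measured differences between mutant and wild-type (WT) muscle in these same arrays, so their differences in those comparisons are given as a description and read as no evidence. For each gene the brightest probe set over the muscle arrays is called its lead probe set.

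The Z-disc is the plate that anchors the actin filaments of neighbouring sarcomeres and passes force sideways to the cell membrane. Alpha-actinin cross-links actin there, and adaptor proteins with LIM and PDZ domains, filamin and the intermediate filament desmin are attached around it. Several of these proteins also report mechanical load, since their genes respond to stretch, and mutations in many of them cause myofibrillar myopathy or cardiomyopathy in humans.

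The arrays came from mice of mixed C57BL6/129SV background. Muscle glycogen synthase knockout (KO) mice aged 3 months gave anterior tibialis (4 arrays) and medial gastrocnemius (3 arrays), set against WT mice of that age (4 tibialis and 5 gastrocnemius arrays). GSL30 mice, which the labels describe as overexpressing, gave gastrocnemius at 8 months (5 arrays), against 5 arrays of WT gastrocnemius at 8 months. Liver of KO and of WT mice at 3 months (4 arrays each) was also measured. The KO lacks the muscle isoform of the enzyme that builds glycogen, and some such pups die around birth, so adults are survivors. The labels used here give no promoter, founder or clone for GSL30, and do not say whether each array is a separate animal, so p-values measure only the spread between these samples.

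The lead probe set of Gys1, the targeted gene, read 34.2 to 72.5 in KO tibialis against 8184 to 9958 in WT tibialis, and 58.1 to 165 in KO gastrocnemius against 3955 to 6378 in WT gastrocnemius at 3 months. In GSL30 gastrocnemius it read 7896 to 10404, against 5840 to 7185 in WT gastrocnemius at 8 months. The labelled tissue was borne out by 8 fibre markers such as Acta1 and Ckm, whose summed intensity was at least 320994 in all 26 muscle arrays. Liver transcripts were present in the gastrocnemius arrays of 3 months, at 2.90 to 8.26% of the WT liver level in KO and at 3.03 to 26.9% in WT, against 0.883 to 1.39% in tibialis and 1.13 to 2.70% in gastrocnemius at 8 months. WT gastrocnemius replicate 2 at 3 months stood apart, with a mean log2 level of 12 fast fibre genes of 16.79 against 14.98 to 15.41 in the other gastrocnemius arrays of its WT group. Hepatocyte markers of that array summed to 745167, above the highest liver array (660428), so it stood apart in more than fast fibre genes. Called member results in gastrocnemius are also given without the arrays of high hepatocyte level. At 3 months that left KO gastrocnemius replicates 2 and 3 and WT gastrocnemius replicates 3 and 5. A call lost there cannot be told apart from the loss of arrays.

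The promoters of 6 of the 10 genes were in the RefSeq table supplied (GRCm38.p6), and Myoz1, Myot, Cryab and Xirp1 were not. The 250 bases before the annotated start are shown for 4 genes. Csrp3 and Ankrd2 had the signals that tracked each other most closely among the 10. Des and Speg lie close together on chromosome 1 and were called in GSL30 muscle, in a comparison that served to choose the genes. Capitals mark E-boxes (CANNTG, searched on both strands), the letters bound by myogenic basic helix-loop-helix factors, and in Speg also the MEF2 consensus.
Csrp3, chr7:48848052-48848301, minus strand: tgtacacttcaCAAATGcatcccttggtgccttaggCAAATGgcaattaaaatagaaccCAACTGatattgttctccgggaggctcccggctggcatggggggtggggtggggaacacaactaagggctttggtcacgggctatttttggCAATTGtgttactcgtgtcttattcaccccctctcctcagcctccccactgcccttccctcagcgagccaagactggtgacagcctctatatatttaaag
Ankrd2, chr19:42035777-42036026, plus strand: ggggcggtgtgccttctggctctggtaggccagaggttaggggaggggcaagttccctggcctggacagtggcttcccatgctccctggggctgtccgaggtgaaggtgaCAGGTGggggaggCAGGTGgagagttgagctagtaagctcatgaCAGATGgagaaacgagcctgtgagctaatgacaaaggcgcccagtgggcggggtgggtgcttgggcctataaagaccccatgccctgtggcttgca
Des, chr1:75360042-75360291, plus strand: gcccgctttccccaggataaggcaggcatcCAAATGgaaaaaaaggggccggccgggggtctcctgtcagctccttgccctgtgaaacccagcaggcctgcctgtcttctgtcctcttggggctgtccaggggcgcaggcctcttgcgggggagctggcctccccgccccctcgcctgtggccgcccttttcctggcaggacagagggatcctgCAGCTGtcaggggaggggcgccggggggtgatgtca
Speg, chr1:75375047-75375296, plus strand: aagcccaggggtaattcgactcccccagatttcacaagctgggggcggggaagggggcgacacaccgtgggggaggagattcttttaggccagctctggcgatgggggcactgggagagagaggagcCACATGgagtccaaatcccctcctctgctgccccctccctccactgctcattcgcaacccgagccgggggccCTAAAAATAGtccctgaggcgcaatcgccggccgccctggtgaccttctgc

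The Csrp3 window held 4 E-boxes, the Ankrd2 window 3, the Des window 2 and the Speg window 1. An E-box was present in 66.2% of all 32851 windows of that length, and in 8 of the 12 member windows. The 4 genes shown are those with an E-box, and the windows of Flnc and Ldb3 held none. The MEF2 consensus, bound by MEF2 factors in muscle genes, was found 51 bases before the Speg start and was present in 2.92% of all windows. The CArG box of serum response factor was found 35 bases before the first listed start of Ldb3 and in 1.47% of all windows. A TATAAA match lay 29 bases before the Ankrd2 start and was present in 12.4% of windows, and the M-CAT element CATTCC, present in 12.6%, was found in windows of Speg and Flnc only. A match is a run of letters and not a measured binding site.

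WT tibialis was set against WT liver, a contrast that the choice of genes did not use. The sample titles put these tissues in different array series, and the labels give 10 µg of RNA for liver and 5 µg for muscle. Tissue, series and RNA amount therefore cannot be told apart. Differences are given throughout on the scale of log2(intensity + 50), which understates those of dim probe sets, and a probe set is called where its adjusted p was under 0.05 (limma, Benjamini-Hochberg over the 13576 probe sets tested). All 10 lead probe sets were higher in WT tibialis, and so were the 16 of 19 member probe sets that passed the filter on dim values, where 69.4% of all tested probe sets passed in either direction. A probe set could pass that filter by being bright in muscle alone, so these counts lend no support of their own. Ldb3 gave 7.85 (SE 0.29) and Myot 7.76 (SE 0.37). These are descriptions, as neither gene's lead probe set was bright enough to be tested between the liver groups. Their liver values were dim (37.8 to 176.9 and 13.8 to 174.3 in WT), so the sizes rest on the pseudocount, and with a pseudocount of 1 they were 8.59 and 9.02. The difference was smallest for Csrp3 (1.20, SE 0.25, adjusted p = 0.00134). The Csrp3 probe set read 1711 to 2254 in KO liver and 1680 to 2199 in WT liver, so a signal of that size was present in a tissue not known for this muscle LIM protein. What the liver signal consists of was not tested. Between KO and WT liver no member passed in limma, where 0.00737% of all tested probe sets (1) passed. Of the 6 member probe sets bright enough to be tested 0 had an unadjusted p under 0.05, against 8.33% of all tested. Adjusted p over those 6 was at least 0.60, with Csrp3 at 0.09 (SE 0.13, adjusted p = 0.881).

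**Figure D1:**
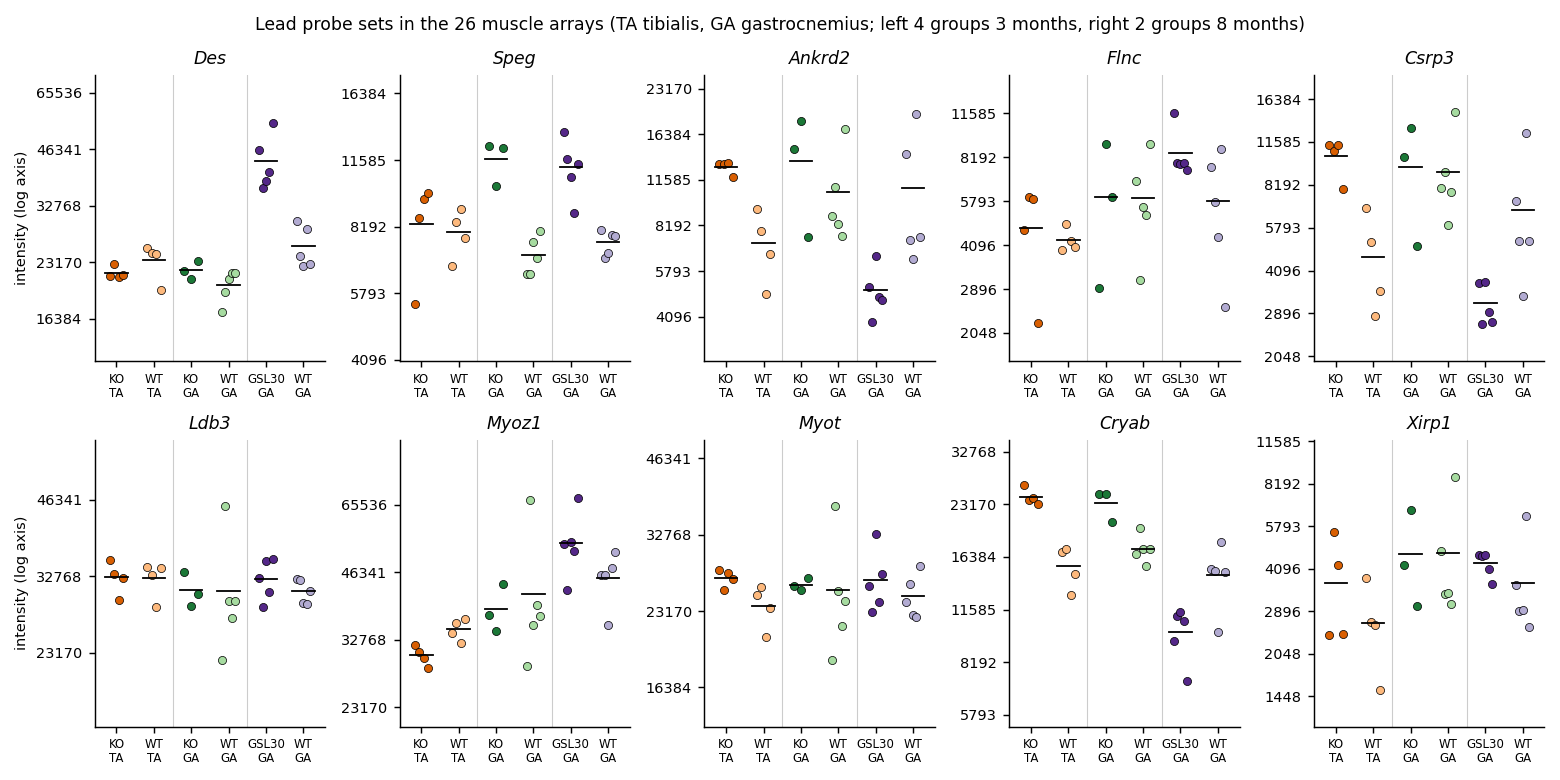
Intensity of each gene's lead probe set (log axis, own range per panel) in the 26 muscle arrays, 1 point per array, with bars at group means. Columns 1 to 4 in each panel are 3-month muscles and columns 5 and 6 are 8-month gastrocnemius. Des in the 5 GSL30 arrays sits between 36499 and 54210, above every other muscle array, while Ankrd2, Csrp3 and Cryab sit low in GSL30 and high in KO tibialis.

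Ankrd2 and Csrp3, which belong to the stretch-responsive regulators, had lead differences of opposite sign in KO tibialis and GSL30, the largest in size of the 10 genes in both. Ankrd2 encodes an ankyrin repeat protein that binds titin in the I-band and is induced by stretch. It read 13024, 13087, 13204 and 11868 in KO tibialis, against 9260, 7883, 4851 and 6603 in WT tibialis. Every KO tibialis array lay above every WT tibialis array, and the KO arrays were close together. In GSL30 gastrocnemius Ankrd2 read 5133, 3940, 6510, 4754 and 4661, against 14127, 7329, 6348, 19117 and 7518 in WT gastrocnemius at 8 months. The groups overlapped only through the highest GSL30 array and the lowest WT array. The log2 difference was 0.87 (SE 0.18) for KO tibialis and −1.0 (SE 0.28) for GSL30, and neither passed the adjusted threshold. In KO gastrocnemius Ankrd2 read 14616, 18098 and 7516, against 8781, 10987, 8313, 7565 and 17107 in WT, which overlapped widely (0.32, SE 0.34, and −0.03 without the arrays of high hepatocyte level).

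Csrp3, the muscle LIM protein that shuttles between Z-disc and nucleus, followed the same pattern. It read 11335, 10775, 11301 and 7903 in KO tibialis, against 6816, 5156, 2847 and 3486 in WT tibialis. The 2 groups did not overlap, and the KO arrays averaged 10329 ± 1637 against 4576 ± 1783 in WT (SD, n = 4 each). In GSL30 gastrocnemius it read 3699, 2658, 3739, 2931 and 2705, against 7188, 5192, 3348, 12499 and 5217 in WT. A single WT array fell inside the GSL30 range, and the lowest GSL30 value, 2658, lay above the highest liver value, 2254. The log2 differences were 1.23 (SE 0.26) in KO tibialis and −0.95 (SE 0.28) in GSL30, again short of the threshold. In KO gastrocnemius the difference was 0.01 (SE 0.35, and −0.21 without the arrays of high hepatocyte level), with arrays at 10289, 12964 and 5011 against 7997, 9060, 5925, 7708 and 14790 in WT.

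Cryab encodes alpha-B-crystallin, a small heat shock protein that binds desmin and protects Z-disc filaments from aggregation. It read 26211, 23801, 24088 and 23199 in KO tibialis, against 16924, 17248, 12746 and 14589 in WT tibialis. Cryab was the single lead probe set of 10 called in KO tibialis (0.67, SE 0.12), where 1.4% of all tested probe sets were called. That call was lost when any of the 8 arrays was left out, with differences of 0.58 to 0.73. In KO gastrocnemius Cryab read 24779, 24757 and 20544, against 16647, 19866, 17244, 15420 and 17220 in WT. These groups did not overlap either, with a difference of 0.43 (SE 0.14) that was not called. In GSL30 gastrocnemius it read 9434, 11110, 11388, 10733 and 7241, against 15109, 14911, 10013, 18013 and 14806 in WT (−0.54, SE 0.17, not called). WT replicate 3 was the 1 array inside the GSL30 range. A second bright Cryab probe set gave 0.55 (SE 0.12), 0.67 (SE 0.17) and −0.53 (SE 0.21) in KO tibialis, KO gastrocnemius and GSL30.

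**Figure D2:**
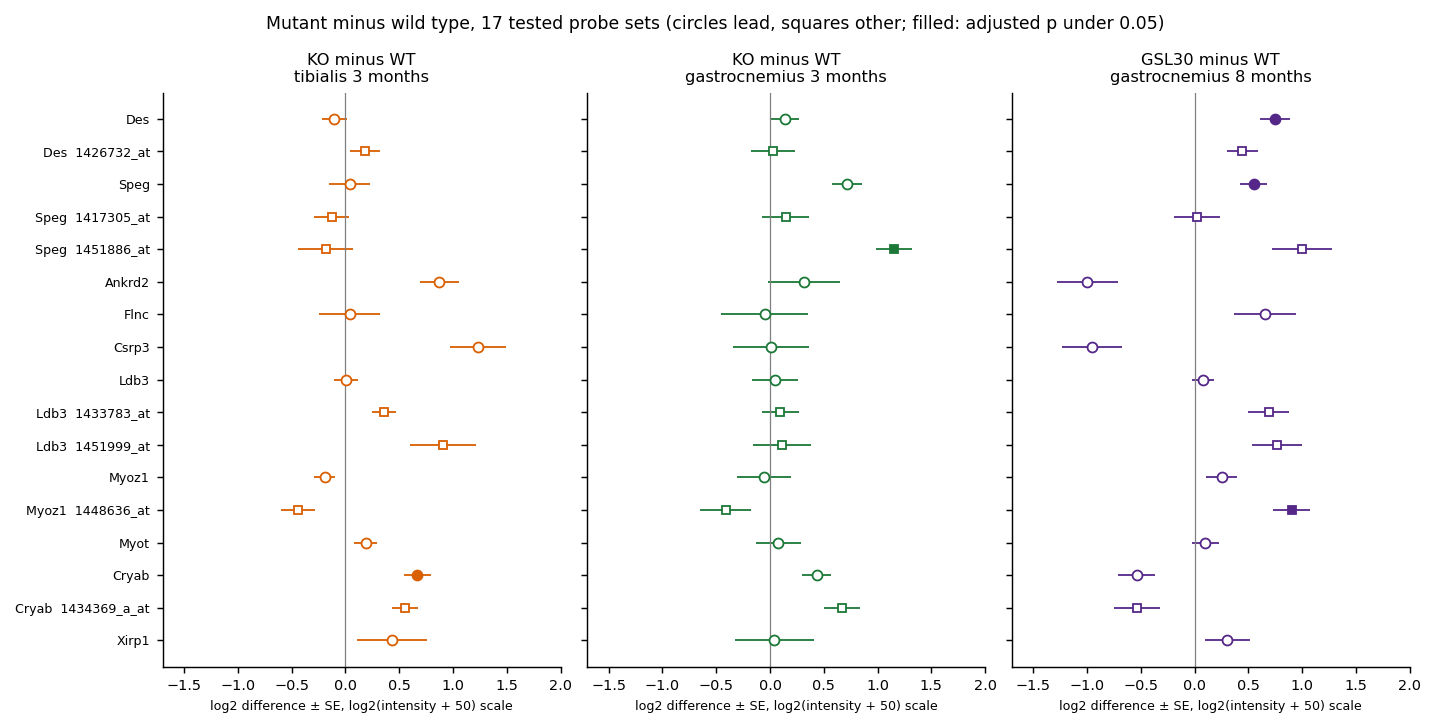
Log2 difference, mutant minus WT, with SE bars, for the 17 member probe sets bright enough to be tested. Circles are lead and squares other probe sets, filled where the adjusted p over all probe sets was under 0.05. The left and right panels show Ankrd2, Csrp3 and Cryab on opposite sides of 0, and the middle panel shows Speg and Cryab farthest to the right.

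Desmin, the intermediate filament that ties Z-discs to each other and to the membrane, stood out in GSL30 gastrocnemius. Des read 46211, 36499, 38159, 40390 and 54210 in GSL30 arrays, against 29887, 24030, 22594, 28320 and 22970 in WT arrays. All GSL30 arrays were above all WT arrays, with means of 43094 ± 7219 against 25560 ± 3324 (SD, n = 5 each). Des rose by 0.75 (SE 0.14), and its call stayed when each of the 10 arrays was left out in turn (0.66 to 0.81). The genes were chosen with this comparison in view, so the call and these fits describe the arrays and are no evidence. In KO tibialis Des read 21327, 22942, 21153 and 21420, against 25235, 24450, 24407 and 19563 in WT (−0.10, SE 0.11). In KO gastrocnemius it read 20934 to 23308, against 17044 to 21645 in WT (0.14, SE 0.13), so both KO muscles overlapped with WT. The dimmer Des probe set gave 0.44 (SE 0.14) in GSL30, without a call.

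Speg encodes a kinase of the myosin light chain kinase family found at the triads of striated muscle. Its lead probe set read 13391, 11662, 10599, 8780 and 11361 in GSL30 gastrocnemius, against 8043, 6965, 7131, 7843 and 7812 in WT. The groups did not overlap and Speg rose by 0.55 (SE 0.13). The call was lost in 7 of 10 fits that left out 1 array, with differences of 0.48 to 0.63, namely all but those without GSL30 replicate 4 or WT replicates 4 and 5. In KO gastrocnemius Speg read 12435, 10106 and 12344, against 6418, 6392, 7573, 6963 and 8000 in WT, without overlap (0.71, SE 0.14, not called). A dimmer Speg probe set read 1162, 1155 and 1168 in KO gastrocnemius, against 505, 610, 553, 358 and 481 in WT. That probe set was called (1.15, SE 0.17), and 7 of 8 fits without 1 array, all but that without WT replicate 2, lost the call. Without the gastrocnemius arrays of high hepatocyte level its difference was 1.10 and not called, that of the Speg lead probe set 0.52 and that of Cryab 0.39. That fit held only KO replicates 2 and 3 and WT replicates 3 and 5. No lead probe set of the 10 was called in KO gastrocnemius in limma, where 0.147% of all tested probe sets were called. An unadjusted p under 0.05 was reached by 2 of the 10, against 11.4% of all tested. Of the other tested Speg probe sets, the dimmer one called in KO gastrocnemius gave 1.0 (SE 0.28) in GSL30, with overlap and no call. A further one overlapped with WT in every mutant muscle, at 0.02 (SE 0.21) in GSL30, 0.14 (SE 0.22) in KO gastrocnemius and −0.13 (SE 0.16) in KO tibialis. In KO tibialis Speg read 5494, 8559, 9457 and 9737, against 6678, 8417, 9003 and 7713 in WT, which overlapped (0.04, SE 0.19).

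In GSL30 gastrocnemius 2 of the 10 lead probe sets were called, both higher, and 3 of the 17 member probe sets tested, where 4.31% of all tested probe sets were called. This comparison served to choose the genes, so these calls, and the fits without 1 array, are read as no evidence. The third called probe set was a dim one of Myoz1, calsarcin-2 of fast fibres, which binds alpha-actinin and calcineurin. It read 2892, 2058, 2883, 2696 and 2633 in GSL30, against 1658, 1619, 1282, 1587 and 899 in WT, without overlap. It rose by 0.90 (SE 0.17) and stayed called in all 10 fits without 1 array, but not with the hepatocyte mean as a covariate (0.96). That mean did not overlap between GSL30 and WT, so the covariate fit cannot separate it from genotype. The bright lead probe set of Myoz1 read 53588, 42351, 54241, 51583 and 67686 in GSL30, against 45702, 45703, 35341, 47448 and 51325 in WT, with overlap (0.25, SE 0.14). The 2 Myoz1 probe sets differed in level by over an order of magnitude, and probe sets of unlike brightness cannot be compared by level. In KO tibialis the lead probe set read 31907, 30806, 29922 and 28367, against 33917, 35705, 32280 and 36428 in WT, all below WT (−0.19, SE 0.10). That difference was positive at 0.05 when arrays were centred on muscle-bright probe sets. In KO gastrocnemius the lead difference was −0.06. The dim Myoz1 probe set gave −0.44 (SE 0.16) in KO tibialis and −0.41 in KO gastrocnemius, with overlap and no call. Both stayed negative under each scaling tried.

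The lead probe sets of the alpha-actinin-binding adaptors Ldb3 and Myot overlapped with WT in every mutant muscle. Ldb3, the PDZ-LIM protein also called ZASP or cypher, had lead values of 29402 to 35256 in KO tibialis, against 28497 to 34229 in WT tibialis. In GSL30 it read 28525 to 35463, against 28878 to 32405 in WT gastrocnemius at 8 months. The lead differences were 0.01 (SE 0.11), 0.05 (SE 0.21) and 0.08 (SE 0.11) in KO tibialis, KO gastrocnemius and GSL30, and each changed sign with the scaling of the arrays. Myotilin, the product of Myot, binds alpha-actinin and filamin C. Myot read 25461 to 27919 in KO tibialis against 20593 to 25826 in WT (0.19, SE 0.11), and 23027 to 32834 in GSL30 against 22501 to 28430 in WT (0.10, SE 0.13).

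The other probe sets of Ldb3 did not match its lead probe set. A probe set of intermediate brightness read 10393, 13546, 20930, 12676 and 20068 in GSL30, against 10231, 9348, 8139, 8873 and 9913 in WT. All GSL30 arrays were above WT, with a difference of 0.69 (SE 0.19) that was not called. In KO tibialis it read 11865, 12711, 12659 and 11250, against 9828, 8185, 9361 and 10400 in WT, also without overlap (0.36, SE 0.11, not called). In KO gastrocnemius it overlapped with WT (0.10, SE 0.17). The dimmest read 9728, 5991, 4989, 5646 and 9215 in GSL30, against 5278, 4531, 3818, 4500 and 2509 in WT (0.77, SE 0.23, not called). The same probe set read 3192, 4661, 2763 and 1974 in KO tibialis, against 1392, 1850, 974 and 2463 in WT (0.91, SE 0.31, not called). Ldb3 is spliced into long and short forms, and the files do not say which forms each probe set reads.

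Flnc and Xirp1 encode actin-binding proteins of the Z-disc and of sites of myofibril repair: filamin C cross-links actin, and Xin, the product of Xirp1, binds it through repeats. Flnc read 11651, 7823, 7791, 7804 and 7415 in GSL30, against 7595, 5748, 4370, 8770 and 2513 in WT. Most GSL30 arrays were above most WT arrays, but the groups overlapped (0.65, SE 0.29, not called). In KO tibialis Flnc read 4628, 5986, 5903 and 2212, against 3944, 4841, 4226 and 4028 in WT (0.04, SE 0.28). Xirp1 read 4587, 4536, 4597, 4095 and 3628 in GSL30, against 3583, 2896, 2922, 6304 and 2548 in WT (0.30, SE 0.21). In KO tibialis it read 2389, 5524, 4206 and 2411, against 3784, 2651, 2584 and 1529 in WT (0.43, SE 0.33). In KO gastrocnemius Flnc read 2923, 9090 and 5981, against 6767, 3112, 5545, 5187 and 9097 in WT. Xirp1 read 4231, 6586 and 3031 in KO gastrocnemius, against 4729, 3339, 3371, 3084 and 8668 in WT. Without the arrays of high hepatocyte level the KO gastrocnemius differences were 0.05 for Flnc and −0.27 for Xirp1. Both genes overlapped with WT in all 3 mutant muscles.

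Over the whole set the median log2 difference of the lead probe sets was 0.11 in KO tibialis, 0.06 in KO gastrocnemius and 0.18 in GSL30, beside 0.04, 0.05 and 0.03 over all tested probe sets. The sign of the lead difference depended on how arrays were scaled for 5 of the 10 genes in KO tibialis (Des, Speg, Flnc, Ldb3 and Myoz1). In KO gastrocnemius it did so for 7. It depended on scaling for Ldb3 alone in GSL30. Ankrd2 and Cryab kept their signs in all 3 comparisons under each scaling tried, and Csrp3 in KO tibialis and GSL30. The dimmest probe sets of Speg and Cryab were under the brightness filter and were not tested in any muscle comparison. That Speg probe set read 9.4 to 144 in GSL30 against 7.2 to 143 in WT gastrocnemius at 8 months.

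The order of the 6 group means differed among the genes. For Des the GSL30 mean was the highest and lay beyond the spread of the next group, WT gastrocnemius at 8 months, while the means of the other 5 groups each lay within 1 SD of their neighbours. Speg means were highest in KO gastrocnemius (11628 ± 1319, SD, n = 3) and GSL30 (11158 ± 1677, SD, n = 5), which did not differ beyond their spread. Cryab was highest in KO tibialis (24325 ± 1311, SD, n = 4) and KO gastrocnemius (23360 ± 2439, SD, n = 3), neighbours within 1 SD, and both lay above the 3 WT groups without overlap. GSL30 had the lowest mean of the 6 groups for Ankrd2, Csrp3 and Cryab. For Ldb3, Myot, Flnc and Xirp1 no neighbouring means differed beyond the larger SD.

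Fibre and cell type markers also differed in these muscles. The mean log2 level of 10 slow fibre genes was 11.54 to 12.14 in GSL30 against 12.42 to 12.70 in WT, without overlap. Of the 10, 9 had negative differences in GSL30 and 7 were called lower. Among those 7 were the slow myosin Myh7 (−1.25, SE 0.19, adjusted p = 0.00636) and the slow troponin Tnnt1 (−1.28, SE 0.22, adjusted p = 0.0102). In KO gastrocnemius the mean was 12.87 to 13.21 against 11.89 to 12.59 in WT, and in KO tibialis 11.03 to 11.86 against 10.96 to 11.39 in WT. In KO tibialis 5 of the 10 slow fibre genes were higher and 5 lower, with 1 call, and in KO gastrocnemius 9 were higher and 1 lower, with 1 call. The called gene in both was Myl3, a slow and ventricular myosin light chain, which rose in KO tibialis (2.0, SE 0.22, adjusted p = 0.00244) and KO gastrocnemius (1.11, SE 0.15, adjusted p = 0.0392). Ankrd2, Csrp3 and Cryab are known to be more abundant in slow or oxidative fibres. The part of fibre type in these results was not tested, and in bulk muscle a change in fibre number and a change in RNA per fibre cannot be told apart. Within groups, the correlation over the 26 muscle arrays with the slow fibre mean was 0.11 for Ankrd2, 0.08 for Csrp3 and −0.03 for Cryab, as a description of arrays that share groups and scaling.

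**Figure D3:**
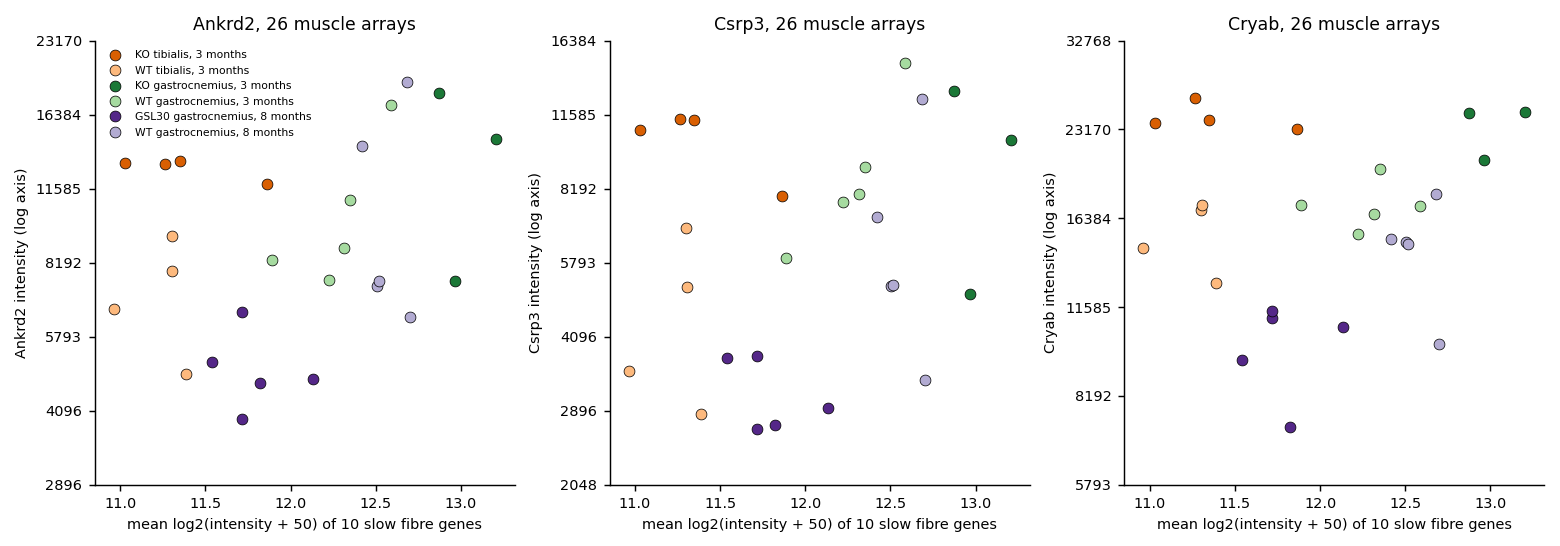
Lead probe set intensity of Ankrd2, Csrp3 and Cryab (log axis) against the mean log2(intensity + 50) of 10 slow fibre genes, 1 point per muscle array. The 5 GSL30 arrays lie low on both axes relative to WT gastrocnemius of 8 months, while the 4 KO tibialis arrays lie high for the 3 genes at slow fibre means of 11.03 to 11.86.

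Smooth muscle cells also carry desmin, so markers of vessel and other cells were read beside the members. In GSL30, 4 of 6 tested smooth muscle markers were called lower, including Myh11 (−1.04, SE 0.13, adjusted p = 0.00323). All 9 endothelial markers had negative differences and 5 were called lower, including Cdh5 (−0.75, SE 0.12, adjusted p = 0.00706). Summed intensities were 10251 to 12155 in GSL30 against 13901 to 17812 in WT for smooth muscle. For endothelium they were 10615 to 12714 against 16771 to 19587. Des and Speg were higher in GSL30, where these lists were lower. The Speg lead probe set was also higher in KO gastrocnemius, though not called. The sums were higher there without overlap, at 17394 to 18777 against 10737 to 14128 in WT for endothelium and 16216 to 16689 against 10873 to 13804 for smooth muscle. No marker of either list passed in limma in KO gastrocnemius, with 5 of 9 endothelial and 4 of 6 smooth muscle markers at an unadjusted p under 0.05. Differences were positive for 7 and negative for 2 endothelial markers, and positive for all 6 smooth muscle markers. The part of these cells in the results was not tested. In KO tibialis no marker of either list passed in limma, with 8 of 9 endothelial and 2 of 7 smooth muscle markers at an unadjusted p under 0.05, and endothelial sums were 19673 to 23445 against 14080 to 17669 in WT. Hepatocyte markers summed to 2168 to 5787 in GSL30 against 6391 to 29015 in WT at 8 months. All 7 tested had negative differences and 3 were called lower. With the hepatocyte mean as a covariate, the Des difference in GSL30 was 0.85 and Speg 0.58, neither called. That mean was 7.50 to 8.64 in GSL30 and 8.73 to 10.60 in WT, without overlap, so the fit cannot separate it from genotype. Without the WT array of 8 months with a high hepatocyte level, Des was 0.73 and called and Speg 0.52 and not called, and the dim Myoz1 probe set 0.96 and called.

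Of 3 tested heart genes 1 was called higher in GSL30 and 1 in KO tibialis. Both times it was Actc1, the cardiac actin also made by immature skeletal fibres (1.85, SE 0.17, adjusted p = 0.00134 in GSL30 and 1.13, SE 0.22, adjusted p = 0.0440 in KO tibialis). The heart list summed to 17580 to 24114 in GSL30 against 5658 to 9209 in WT, to 12440 to 21591 in KO tibialis against 6646 to 9571, and to 10508 to 15189 in KO gastrocnemius against 3746 to 8565. Most of each heart sum was Actc1, at 9726 to 14031 in KO gastrocnemius against 2644 to 7327 in WT. Of the 3 tested heart genes, 3 had positive differences in GSL30, 2 in KO tibialis and 1 in KO gastrocnemius. Of 3 tested regeneration genes, all with positive differences in KO tibialis, Chrna1, an acetylcholine receptor subunit, was called (0.74, SE 0.15, adjusted p = 0.0451). All 9 tested fibroblast and all 5 adipocyte markers had negative differences in GSL30, where 3 and 1 passed, and Fmod, a matrix proteoglycan, fell in KO tibialis (−0.91, SE 0.16, adjusted p = 0.0293). Of 12 fast fibre genes 1 was called in GSL30, Myh2, which was lower (−0.65, SE 0.14, adjusted p = 0.0282), and 0 in either KO muscle. Differences of 10 of the 12 were positive in GSL30 (median 0.20), of 4 in KO tibialis and of 3 in KO gastrocnemius. The 6 macrophage markers gave 0 calls in all 3. Unadjusted p was under 0.05 for 1 and 2 fast fibre genes in KO tibialis and KO gastrocnemius, and for 1, 0 and 1 macrophage markers in GSL30, KO tibialis and KO gastrocnemius. The part of these cells and programmes in the members' values was not tested.

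Other genes of the same structures were described from lists written with earlier results of these data known. In KO tibialis and KO gastrocnemius no gene passed in limma in any of 5 lists. These were other Z-disc genes (19 tested), titin, M-band and related genes (8), and intermediate filament and costamere genes (27 and 28). The others were ankyrin-repeat, LIM and further stretch genes (11), and small heat shock and chaperone genes (12). At an unadjusted p under 0.05 stood 21 of 77 genes of these lists in KO tibialis and 21 of 78 in KO gastrocnemius, against 15% and 11.4% of all tested probe sets. In GSL30, 2 of 19 other Z-disc genes were called higher and 1 lower. Pdlim7, a PDZ-LIM adaptor like Ldb3, rose (0.62, SE 0.10, adjusted p = 0.00878), and its relative Pdlim1 fell (−0.79, SE 0.14, adjusted p = 0.0111). Among 11 genes of the stretch list 5 had positive and 6 negative differences, with 2 called higher and 1 lower. Tmod1, which caps actin filaments, was higher and had the smallest limma p of the list (1.42, SE 0.18, adjusted p = 0.00383). Mustn1, a small nuclear protein of the musculoskeletal system, also rose (1.25, SE 0.17, adjusted p = 0.00400). Among 26 filament and costamere genes 2 were called higher and 2 lower. These included Bin1, which shapes transverse tubules (0.80, SE 0.13, adjusted p = 0.0102), and utrophin, Utrn (−0.72, SE 0.14, adjusted p = 0.0185). Of 8 genes of the titin and M-band list 7 had positive differences, and 1 was called, Smpx, a small costamere protein (0.49, SE 0.13, adjusted p = 0.0492). No chaperone of 12 passed in limma, with 3 at an unadjusted p under 0.05, against 21.4% of all tested probe sets. Their medians were 0.19 for the other Z-disc list and −0.42 for the stretch list, against 0.03 for all tested probe sets.

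WT muscles were compared with each other as contrasts that the choice of genes did not use, though they share WT arrays with the mutant comparisons. The sample titles put tibialis and gastrocnemius of 3 months in different array series, so muscle and series cannot be told apart. Between WT gastrocnemius and WT tibialis at 3 months, 1 of 10 lead probe sets and 3 of 17 member probe sets passed, where 27% of all tested probe sets did. Csrp3 was higher in gastrocnemius (1.0, SE 0.30, adjusted p = 0.0321), with 5 arrays of 5925 to 14790 against 4 of 2847 to 6816 in tibialis, an overlap of 1 array from each side. It no longer passed without WT gastrocnemius replicate 1, 4 or 5 or WT tibialis replicate 3 or 4 (0.80 to 1.21 over all 9 such fits, adjusted p 0.0219 to 0.0945). With the arrays of high hepatocyte level left out it was 1.11 and did not pass (limma adjusted p = 0.132), and averaged over KO and WT arrays it was 0.46 (adjusted p = 0.186).

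Ldb3 and Cryab gave different answers by probe set between the WT muscles. The dimmest Ldb3 probe set read 3819, 2201, 4708, 2845 and 4028 in gastrocnemius, against 1392, 1850, 974 and 2463 in tibialis. It was higher in gastrocnemius (1.08, SE 0.28, adjusted p = 0.0185), but not without WT tibialis replicate 1 or 3, where adjusted p reached 0.0541. The lead Ldb3 probe set gave −0.12 (SE 0.19, adjusted p = 0.664). The second Cryab probe set read 11710, 12189, 9751, 13786 and 14651 in gastrocnemius, against 24089, 21809, 18131 and 20000 in tibialis, without overlap. It was lower in gastrocnemius (−0.76, SE 0.15, adjusted p = 0.00491) and passed in all 9 fits without 1 array, but not with arrays centred on muscle-bright probe sets (−0.31, adjusted p = 0.204) or with the hepatocyte covariate (−0.66, adjusted p = 0.457). With that covariate the Ldb3 probe set was at 2.54 and did not pass (adjusted p = 0.129). The hepatocyte mean was 11.44 to 15.50 in gastrocnemius and 7.14 to 7.40 in tibialis, so the covariate fit cannot separate it from muscle. Without the arrays of high hepatocyte level both passed, the Cryab probe set at −0.80 (adjusted p = 0.0414) and the Ldb3 probe set at 1.43 (adjusted p = 0.0318). The lead Cryab probe set read 15420 to 19866 in gastrocnemius against 12746 to 17248 in tibialis (0.17, SE 0.13, adjusted p = 0.360). Both probe sets carry the same gene symbol, and the files do not say which transcripts they read.

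**Figure D4:**
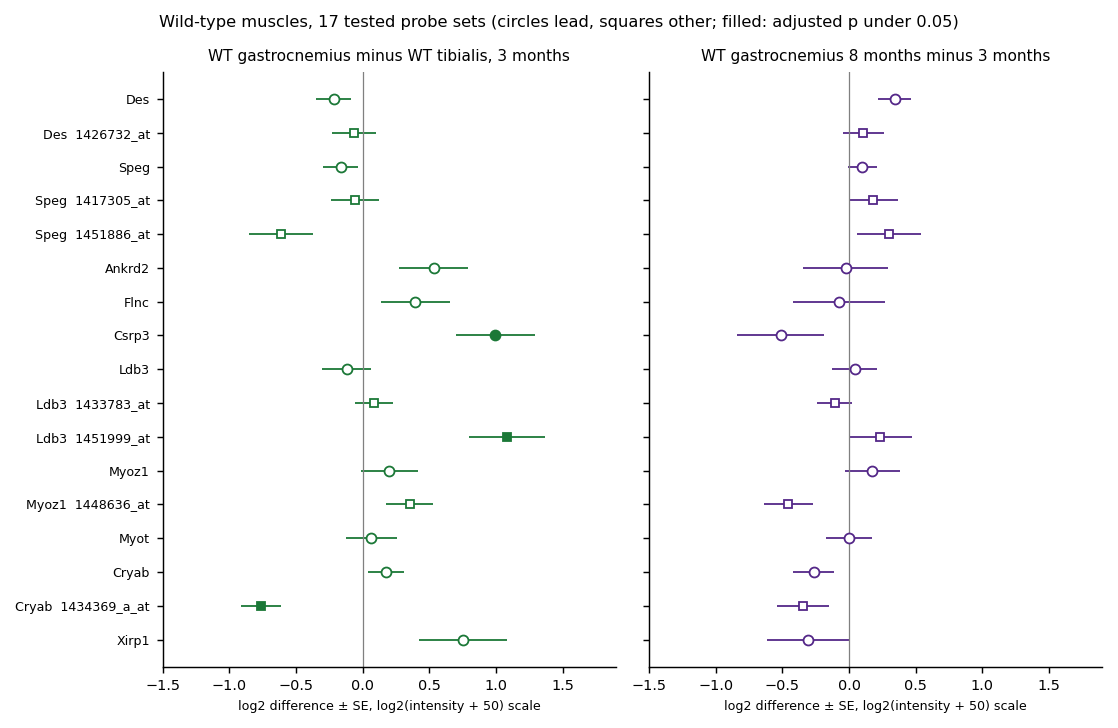
Log2 difference with SE bars between WT gastrocnemius and WT tibialis at 3 months (left) and between WT gastrocnemius at 8 and at 3 months (right), for the 17 member probe sets tested; symbols as in the plot of mutant differences. The left panel has 3 filled symbols, Csrp3 and a dim Ldb3 probe set to the right and a Cryab probe set to the left, and the right panel has none.

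WT gastrocnemius at 8 months was also set against 3 months, where age and the array series marked in the sample titles cannot be told apart. No member passed by limma, of 10 lead and 17 tested probe sets, where 6.19% of all tested probe sets did. An unadjusted p under 0.05 was reached by 2 of the 17, against 22.3% of all tested. Des read 22594 to 29887 at 8 months against 17044 to 21645 at 3 months, without overlap (0.34, SE 0.13, adjusted p = 0.132). Csrp3 gave −0.51 (SE 0.33, adjusted p = 0.387) and the dim Myoz1 probe set −0.45 (SE 0.18, adjusted p = 0.173). Hepatocyte markers, 11 of 11, were lower at 8 months. Without the arrays of high hepatocyte level Des was at 0.28 and Csrp3 at −0.57, and no lead probe set passed.

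Some members moved together from array to array. Over the 26 muscle arrays the correlation of log2 values was 0.95 between Ankrd2 and Csrp3, and 0.94 after group means were removed. Cryab had correlations of 0.80 with Ankrd2 and 0.83 with Csrp3, and 0.60 and 0.66 within groups. Ldb3 and Myot had 0.83 over all arrays and 0.88 within groups, and WT gastrocnemius replicate 2 at 3 months had the highest value of both (45024 and 37327). Myoz1 had 0.49 with Ldb3 and 0.50 with Myot over all arrays, and 0.84 and 0.79 within groups. Flnc and Xirp1 had 0.65 and, within groups, 0.63. Within groups Xirp1 ran closer to Csrp3 (0.74) and Ankrd2 (0.70), with 0.44 and 0.40 over all arrays. Des and Cryab ran opposite over all arrays (−0.74) but hardly within groups (−0.16). These are descriptions over arrays that share groups and scaling, with no test.

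**Figure D5:**
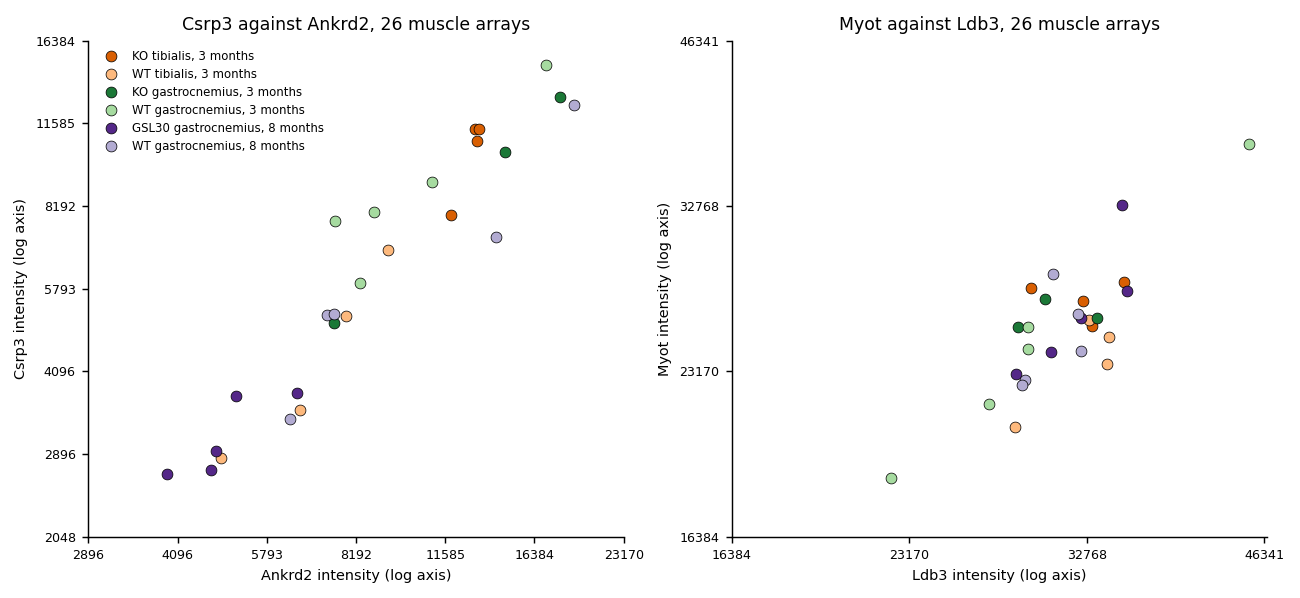
Csrp3 against Ankrd2 (left) and Myot against Ldb3 (right), lead probe set intensity on log axes, 1 point per muscle array. In the left panel GSL30 arrays lie at the low end and KO tibialis arrays near the high end of a single band, and in the right panel 1 WT gastrocnemius array of 3 months lies far above the rest.

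Among 12488 other probe sets, the nearest to each member over the 26 arrays was named by the highest Pearson r. Cryab was nearest to Myoz2, the slow-fibre calsarcin (0.89, and 0.64 within groups). Flnc was nearest to Hspb7, a small heat shock protein of striated muscle (0.88 both over all arrays and within groups). Csrp3 was nearest to Lmcd1, a LIM protein (0.76, and 0.80 within groups), and Ankrd2 to Cab39 (0.82, and 0.74 within groups). Xirp1 was nearest to the inducible heat shock gene Hspa1a (0.78, and 0.77 within groups), and Speg to the myosin gene Myh14 (0.82, and 0.60 within groups). Ldb3 and Myot were nearest to the mitochondrial carriers Slc25a4 (0.88) and Slc25a3 (0.80), Myoz1 to the ribosomal gene Rpl4 (0.94) and Des to Npepl1 (0.93). Within groups these were 0.91 for Ldb3, 0.88 for Myot, 0.88 for Myoz1 and 0.58 for Des. Each r was picked as the highest of 12488, so its size is a description only.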

How the data were processed

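The labels describe total RNA extracted with TRIzol and RNeasy and hybridised to Affymetrix arrays; for the summarising software, the sources used here name none. The deposited values are intensity on a linear scale, and as read from the values the authors scaled each array to a trimmed mean of about 1000 (1000.34 to 1000.49 after dropping 2% at each end). Negative values were replaced by 0 and the deposited intensity was taken as log2(value + 50) with no further scaling, so log2 differences are on that scale and understate changes of dim probe sets. A separate limma model (lmFit and eBayes, version 3.58.1, R 4.3.3) held only the arrays compared. The 64 control probe sets and those dimmer on average than the 40th percentile were dropped, leaving 13576. Adjusted p is Benjamini-Hochberg over those, and a call is an adjusted p under 0.05. The number of arrays limits the precision.

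The supplied annotation gave 20393 probe sets a single symbol, 691 several symbols and 1606 none. The lead probe set of a gene is the one of highest mean log2 value over the 26 muscle arrays. The members, gene lists (203 entries, 181 measured) and tests were chosen with earlier results of these data known. Members, the nearest gene to each, Gys1 and up to 2 called genes per list by smallest p were named. Liver level is the median, over 472 probe sets bright in liver and at least 20-fold dimmer in tibialis, of the percent of WT liver. Alternatives were other scalings, pseudocounts (1, 200), filters, variance models, liver transcripts, arrays left out and other probe sets. Promoters were searched in Python 3.11.15 and figures drawn with matplotlib 3.10.9.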

Additional observations from a re-analysis of the deposited data

Results flagged for a closer look

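In groups of 4 or 5 arrays, 95 group and probe set pairs were examined for an array far from the others by Dixon's gap test, which flags about 1 in 20 by chance; 9 were found. In KO tibialis, Des read 22941.5 in replicate 2 against 21152.8 to 21420.2 in the others, and a dim Speg probe set read 173.9 in replicate 1 against 277.3 to 293.8. Replicate 4 of KO tibialis was lowest for Ankrd2 (11868, others 13024.4 to 13204.2) and for Csrp3 (7903.3, others 10775.1 to 11334.8), and it had the highest slow fibre mean of its group (11.86). In WT tibialis, Des read 19562.5 in replicate 4 against 24407 to 25235.1. In GSL30 gastrocnemius, Flnc read 11650.6 in replicate 1 against 7415.1 to 7822.7. In WT gastrocnemius at 3 months, Myoz1 read 66951.9 in replicate 2 against 28709.6 to 39112.7, the array that stood apart for fast fibre genes. In WT gastrocnemius at 8 months, Xirp1 read 6303.6 in replicate 4 against 2547.8 to 3583.4, and the dimmest Speg probe set read 142.9 in replicate 5 against 7.2 to 23.6.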

How the results depend on the processing

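The counts of lead probe sets called depended on the settings, and the cause was not tested. In KO tibialis (1 called) the count was 3 with quantile normalization, a pseudocount of 200, the 60th percentile filter or a trended robust variance, 4 with arrays centred on muscle-bright probe sets, 2 with all 34 arrays in 1 fit, 0 with a common median or no filter, and 0 to 2 without 1 array; the added genes were Ankrd2, Csrp3 and, under centring, Myot. In KO gastrocnemius (0 called) it was 1, Speg, with all 34 arrays in 1 fit. In GSL30 (2 called) it was 1 with a common median, no filter, centring or high-hepatocyte arrays left out, 4 with the 60th percentile filter, 5 with all 34 arrays, 0 with the hepatocyte covariate, and 1 to 3 without 1 array. Between WT gastrocnemius and WT tibialis (1 called) it was 0 with a common median, no filter, the hepatocyte covariate, high-hepatocyte arrays left out or genotypes averaged, 2 with all 34 arrays, 5 with centring, and 0 to 2 without 1 array.

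In that comparison the sign turned with the probe set for Ldb3 (1.08 in place of -0.12) and Cryab (-0.76 in place of 0.17). Centring put the median of all tested probe sets at 0.28 in KO tibialis (0.04 as deposited), -0.11 in KO gastrocnemius (0.05) and 0.40 between the WT muscles (-0.05), where a common median gave -0.19. The arrays left out for liver transcripts were WT gastrocnemius 1, 2 and 4 and KO gastrocnemius 1 at 3 months and WT gastrocnemius 2 at 8 months. The hepatocyte mean did not overlap between groups in GSL30 or between the WT muscles, so the covariate fits there cannot separate it from group. No paired analysis was possible because the labels number no replicates across groups.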
